A study of Saccharomyces cerevisiae with 40 samples.

Results

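GAP1 (locus tag YKR039W), the gene of the general amino acid permease of budding yeast, was followed across 20 nitrogen sources. It was 1 gene of 5557 named on the arrays, found by its symbol as 2 spots in each of the 2 deposited value tables, and it had a value on all 40 arrays. The growth conditions were asparagine, glutamine, serine, alanine, GABA (gamma-aminobutyrate), ammonium, arginine, leucine, aspartate, methionine, valine, phenylalanine, glutamate, tyrosine, ornithine, threonine, proline, isoleucine, citrulline and tryptophan, each set against urea. All cultures were of Σ1278b, a laboratory strain used in work on nitrogen regulation, in a defined minimal medium with 3% glucose. Cells had divided for at least 10 generations and were taken while growing exponentially and sparse. Each source and urea were supplied at 10 mM, tryptophan at 5 mM, and ammonium came as its sulfate salt. PolyA RNA of 1 source and of urea, each labelled with 1 of the dyes Cy5 and Cy3, competed on every array, and every source had 2 arrays.

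Gap1 sits in the plasma membrane and imports nearly all amino acids, several of their relatives and GABA. Its gene is a textbook target of nitrogen catabolite repression, in which good nitrogen sources keep the GATA activators Gln3 and Gat1 from switching on genes for the use of poorer ones. The GATA repressors Dal80 and Gzf3 act on the same promoter elements, and the protein itself is sorted to the vacuole after ubiquitination when amino acids are plentiful. Urea is commonly counted among the poorer sources. The measurement here is of mRNA, so it does not bear on where the permease protein was.

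Values are log2 ratios of source over urea, so a negative value means less GAP1 RNA than on urea, with base 2 assumed because no base is named. A fitted value is that of a limma model with a term for each source and a term for the dye, given ± its SE, with n = 2 arrays per source. A source was called where the adjusted p (limma, two-sided, Benjamini-Hochberg over all genes tested on that source) was under 0.05. The labels do not state whether both arrays of a source were made from different cultures, and the p-values thus cover only array-to-array spread, which may be technical. Urea RNA was on every array, so all 20 comparisons share it, and precision is limited by having 2 arrays in each.

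GAP1 fell on 7 sources and was not called on 13. It rose on 0, whether by the adjusted p in limma or by an unadjusted p under 0.05. The 7 were asparagine, glutamine, serine, alanine, GABA, ammonium and arginine, with fitted values between -4.19 and -1.09. On the other 13 the fitted values lay between -0.46 and 0.44. Both arrays were below 0 on 13 sources, both were above 0 on 2, and they differed in sign on 5. The moderated F over the 20 sources was 17.7 (limma, adjusted p = 7.73e-09), which ranked 218 of 4332 genes, and 63.7% of all genes passed that test. The SD of the fitted values over sources was 1.34 on the log2 scale against a median of 0.166 over the 3920 genes to which that measure could be given, where GAP1 ranked 6. Of 1256 genes tested on all 20 sources, 163 were called lower on at least as many sources as GAP1.

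**Figure D1:**
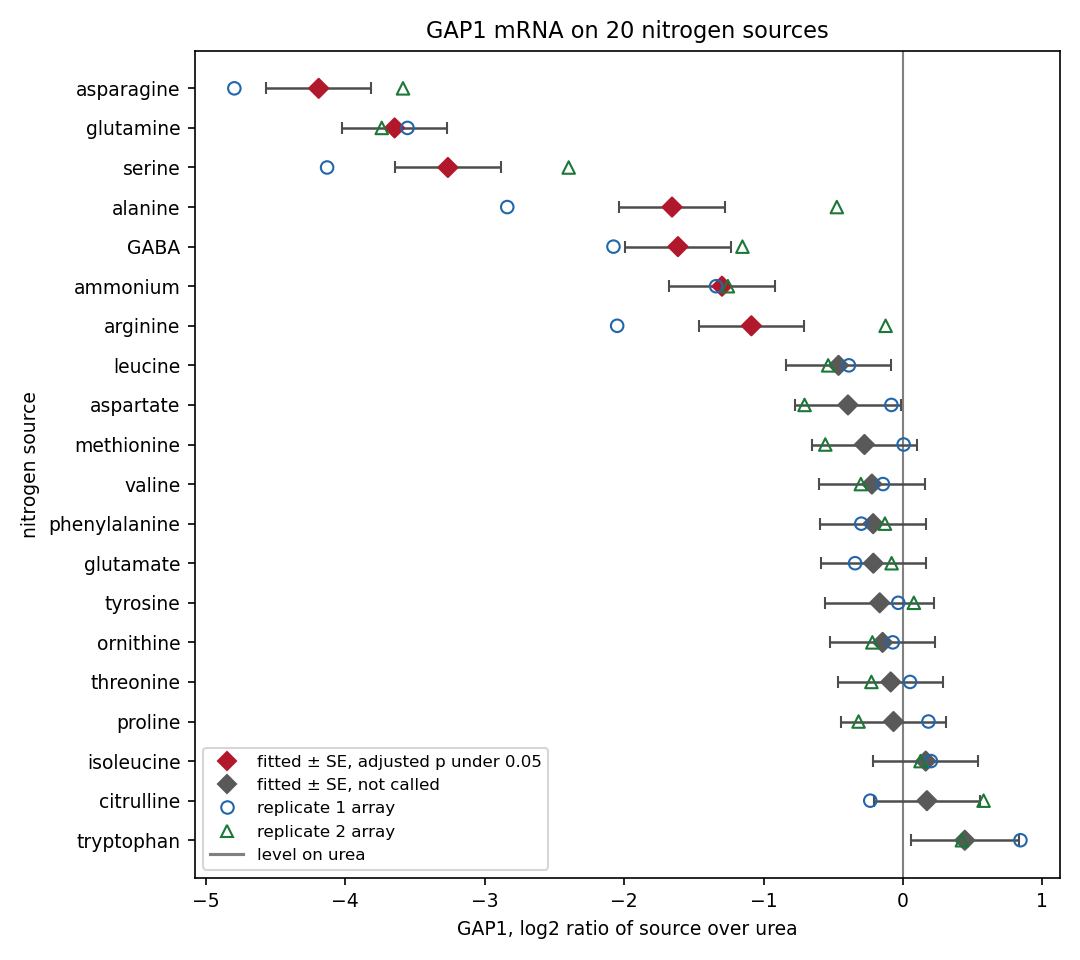
GAP1 log2 ratio of source over urea (horizontal axis) on the 20 nitrogen sources (vertical axis, ordered by fitted value). Circles and triangles are the replicate 1 and replicate 2 arrays, diamonds the fitted value with its SE, red where the adjusted p was under 0.05. Asparagine, glutamine and serine stand apart at -4.19, -3.65 and -3.26, and 13 sources lie between -0.46 and 0.44.

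Asparagine, glutamine and serine gave the lowest GAP1 levels. On asparagine the arrays read -4.80 and -3.59, a fitted value of -4.19 ± 0.38 that corresponds to 18.3-fold less RNA than on urea (adjusted p = 5.26e-09, with 14.7% of all genes called lower on asparagine). Only 4 of the 3953 genes tested on that source had a lower value. On glutamine the arrays read -3.55 and -3.74, fitted as -3.65 ± 0.38, or 12.5-fold less (adjusted p = 6.63e-08, 12.9% of genes called lower). The glutamine arrays lay close together and both were far below urea. On serine the arrays read -4.13 and -2.40, fitted as -3.26 ± 0.38, or 9.61-fold less (adjusted p = 6.07e-07, 11.3% of genes called lower). Both serine arrays were below every array of the 13 uncalled sources, although they lay 1.73 apart. In the fits without either array of each source in turn, the calls on asparagine, glutamine and serine were kept, and the highest adjusted p among them was 0.00239 on serine.

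Alanine, GABA, ammonium and arginine gave an intermediate level. Each of these 4 calls was lost in at least 1 fit without 1 array of the source. On alanine, an amino acid that is turned into pyruvate and glutamate by a transaminase, the arrays read -2.84 and -0.47, fitted as -1.66 ± 0.38, or 3.15-fold less (adjusted p = 0.00243, 12.1% of genes called lower). Without replicate 1 the alanine value was -0.61 with an adjusted p of 0.464, and without replicate 2 it was -2.71 with an adjusted p of 0.000424. The 2 alanine arrays lay farther apart than those of any other source. On GABA, which is broken down to succinate, the arrays read -2.08 and -1.15, fitted as -1.61 ± 0.38, or 3.06-fold less (adjusted p = 0.0032, 11.0% of genes called lower). Both GABA arrays were clearly below urea, and the adjusted p was 0.127 without replicate 1. On ammonium the arrays read -1.34 and -1.26, fitted as -1.30 ± 0.38, or 2.46-fold less (adjusted p = 0.0164, 10.7% of genes called lower). The ammonium arrays were among the closest pairs, yet with a single array of this source the adjusted p was 0.0988 or 0.245, since the spread is shared by all sources. On arginine the arrays read -2.05 and -0.12, fitted as -1.09 ± 0.38, or 2.12-fold less (adjusted p = 0.0475, 8.91% of genes called lower). The second arginine array was within the range of the uncalled sources, and without replicate 1 the value was -0.27 with an adjusted p of 0.805. With the replicate number as a block in place of the dye term, the arginine call was lost (-1.09, adjusted p = 0.0582).

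On the 13 other sources GAP1 did not pass the test, in either direction. The shares of all genes called lower on them were 8.27% on leucine, 6.87% on valine, 3.76% on isoleucine, 9.80% on phenylalanine, 6.62% on tyrosine, 8.43% on tryptophan, 10.1% on aspartate and ornithine, 9.87% on glutamate, 11.1% on methionine, 8.80% on threonine, 7.61% on proline and 4.87% on citrulline, so other genes passed the test on each of these sources. Among the branched-chain amino acids, the arrays read -0.39 and -0.54 on leucine, -0.14 and -0.30 on valine, and 0.20 and 0.13 on isoleucine. Leucine had the lowest fitted value of the 13, at -0.46 ± 0.38 (adjusted p = 0.428). Among the aromatic ones, they read -0.30 and -0.13 on phenylalanine, -0.03 and 0.08 on tyrosine, and 0.84 and 0.42 on tryptophan. Tryptophan had the highest fitted value of all 20 sources, at 0.44 ± 0.39 (adjusted p = 0.463), and it was the source supplied at the lower concentration. Tyrosine and tryptophan had urea in Cy5 on both arrays, so the dye term of GAP1 (-0.19 ± 0.09, adjusted p = 0.0836 in limma) entered their fitted values. Without that term the tyrosine value of -0.17 became 0.02 and the tryptophan value of 0.44 became 0.63, both still uncalled.

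The acidic amino acids aspartate and glutamate read -0.08 and -0.71, and -0.34 and -0.08, on their arrays. The fitted values were -0.39 on aspartate and -0.21 on glutamate. Methionine read 0.00 and -0.56, and threonine read 0.05 and -0.23. Proline, whose breakdown leads to glutamate, read 0.18 and -0.32 (fitted -0.07). The proline arrays fell on either side of urea. Ornithine read -0.07 and -0.22, and citrulline, its carbamoylated form, read -0.23 and 0.58, fitted as -0.15 on ornithine and 0.17 on citrulline. The 95% intervals rest on 1 spread shared by all sources and were wide. That of leucine, for example, ran from -1.24 to 0.32, although its arrays lay 0.15 apart.

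Order among neighbours was resolved at a single place. Of the 19 steps between adjacent sources, 18 had a 95% interval that held 0. The exception was the step between alanine and serine, where alanine was higher by 1.61 (95% interval 0.51 to 2.71). GABA minus alanine, the next step, was 0.04 (-1.06 to 1.14). The order of the sources was taken from these same values, so the steps carry no test.

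By its spread pooled over all sources, GAP1 was one of the least repeatable genes between arrays. Its residual SD was 0.610 on the log2 scale against a median of 0.168, and 99.4% of genes had a smaller one. The 2 arrays of a source lay 1.21 apart in the median over the 7 called sources and 0.26 apart over the 13 others. The share of genes whose arrays lay closer ran from 21.3% on ammonium to 99.9% on alanine among the 7. Among the others with opposite dyes it ran from 14.6% on isoleucine to 94.7% on aspartate. The 2 spots of GAP1 on an array differed by 0.0022 to 0.403 over the 40 arrays, with a median of 0.0442. On alanine they differed by 0.027 on replicate 1 and by 0.0059 on replicate 2, against a gap of 2.36 between those arrays. On glutamine replicate 2 and ammonium replicate 1, by contrast, the spots differed by 0.403 and 0.218, more than the gaps of 0.18 and 0.08 between the arrays of these sources. Across the 18 sources with opposite dyes, replicate 1 and replicate 2 of GAP1 had a Pearson r of 0.835 and a Spearman rho of 0.571. The points share urea as their reference within each table. For those 18 sources the replicate, the dye orientation and the deposited table coincide, and their parts in the gaps cannot be told apart.

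Other transporter genes also had gaps on the arrays where those of GAP1 were large, in both directions. DAL5, the allantoate permease gene, read -5.04 and -2.13 on alanine, a gap of -2.91 (replicate 1 minus replicate 2) beside the -2.36 of GAP1. MEP2, the high-affinity ammonium permease gene, read -2.67 and -1.48 on alanine and -2.65 and -1.01 on arginine. The arginine gap was -1.63 for MEP2 and -1.93 for GAP1. On serine the gap was -1.73 for GAP1 and -2.48 for DAL5 but 0.30 for MEP2, and on asparagine it was -1.21 for GAP1, -1.93 for DAL5 and 0.71 for MEP2. MEP1, another ammonium permease gene, had gaps of the opposite sign on all 4 of these sources. They were 0.07 on alanine, 0.31 on arginine, 0.66 on serine and 0.82 on asparagine. The MEP1 gap was positive on 16 of the 17 sources where it could be read, so that sign was not particular to these 4. Over the 18 sources the gap of DAL5 was negative on 16 and that of GAP1 on 9. The gaps of DAL5 and of MEP2 each shared the sign of GAP1 on 11. The part of the dyes, tables or cultures in this was not tested.

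Several sources differ by a single chemical group or lie next to each other in a pathway, and 14 such pairs were compared in the same fit, with adjustment over all genes within each pair. GAP1 differed in 3 of them. Glutamine differs from glutamate by an amide in place of the side-chain carboxylate, and GAP1 was lower on glutamine than on glutamate by a difference of -3.43 ± 0.54 (adjusted p = 0.000404 in limma, with 0.731% of genes called). The corresponding amide, asparagine, gave less than aspartate by a difference of -3.80 ± 0.54 (adjusted p = 0.000171, 0.702% of genes called). The 2 amide arrays lay below both acid arrays in each pair, without overlap. Threonine carries a methyl group that serine lacks, and GAP1 was higher on threonine than on serine by 3.18 ± 0.54 (adjusted p = 0.000433, 3.43% of genes called). The lower threonine array, at -0.23, was well above the higher serine array, at -2.40. These 3 calls held without any 1 of the 4 arrays of the pair, with adjusted p up to 0.0417.

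The other 11 pairs were not called, which does not show that the sources act alike. GABA, which is glutamate without its alpha-carboxyl group, gave a difference of -1.40 (95% interval -2.50 to -0.30, adjusted p = 0.227) from glutamate with 1.19% of genes called, and the 2 pairs of arrays did not overlap. Citrulline was above arginine by 1.26 (0.16 to 2.36, adjusted p = 0.184, 4.71% of genes called) and ornithine above arginine by 0.94 (-0.16 to 2.04, adjusted p = 0.607, 0.0962% of genes called). Their arrays overlapped with those of arginine. Citrulline minus ornithine was 0.32 (-0.78 to 1.42, 6.05% of genes called). Among the branched-chain amino acids the differences were -0.63 for leucine minus isoleucine (-1.73 to 0.48), -0.24 for leucine minus valine (-1.34 to 0.86) and 0.39 for isoleucine minus valine (-0.72 to 1.49). The genes called in these 3 pairs made up 1.19%, 1.63% and 0.265%, and each interval holds 0 as well as differences of more than 1 on one side. Among the aromatic ones they were -0.05 for phenylalanine minus tyrosine (-1.16 to 1.07), -0.66 for phenylalanine minus tryptophan (-1.77 to 0.46) and -0.61 for tyrosine minus tryptophan (-1.71 to 0.49). The shares of genes called in these were 2.15%, 5.34% and 0.783%. Tryptophan was given at another concentration, so its values stand beside the others without a matched dose. Proline minus glutamate was 0.14 (-0.96 to 1.25), with 0.284% of genes called.

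**Figure D2:**
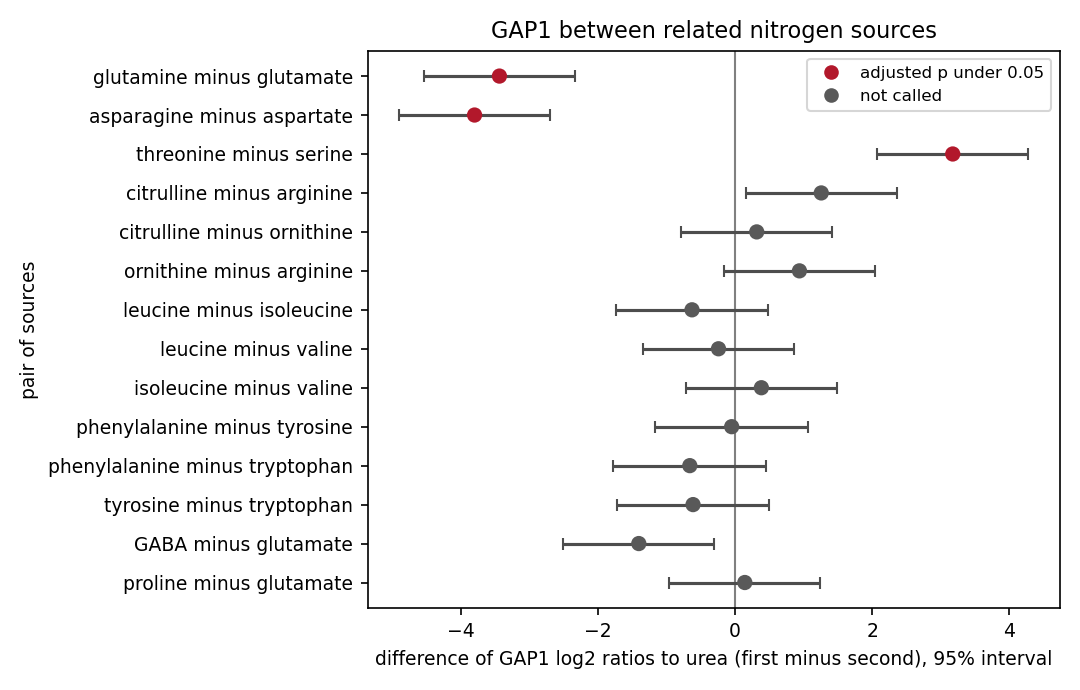
Difference of the GAP1 log2 ratios to urea between the members of 14 pairs of related sources (first minus second, horizontal axis), with 95% intervals, red where the adjusted p was under 0.05. Glutamine minus glutamate, asparagine minus aspartate and threonine minus serine, at -3.43, -3.80 and 3.18, lie away from 0, and the intervals of citrulline minus arginine and GABA minus glutamate exclude 0 without passing the adjusted threshold.

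Taken by class, GAP1 was lower on 3 of the sources that textbooks name as preferred. Ammonium, glutamine and asparagine had fitted values of -1.30, -3.65 and -4.19, a mean of -3.05 (SD 1.54, n = 3), against -0.53 (SD 0.91, n = 17) on the other sources. The difference was -2.51 (exact permutation test over sources, two-sided, p = 0.00351, the smallest possible being 0.000877 with 1140 arrangements). The classes overlapped, because ammonium lay above serine, alanine and GABA, which are in the other class. Glutamate, at -0.21 and not called, was also counted in that other class. The 7 amino acids whose breakdown by the Ehrlich pathway leaves fusel alcohols (leucine, isoleucine, valine, methionine, phenylalanine, tyrosine and tryptophan) averaged -0.11 (SD 0.31), against -1.35 (SD 1.48) on the 13 others, with 0 of 7 called lower in the class (0 also at an unadjusted p under 0.05 in limma) and 7 of 13 outside it. The difference was 1.24 (exact permutation test, two-sided, p = 0.038), and it did not pass without the replicate 1 arrays of all sources (0.93, p = 0.0888) or without tryptophan and tyrosine (1.14, p = 0.108). Unlike the fusel class, the 13 others ranged widely, from -4.19 on asparagine to 0.17 on citrulline. They included ammonium, glutamine and asparagine, so the 2 class differences are not separate results. Aspartate, glutamate, ornithine, threonine, proline and citrulline, at -0.39 to 0.17, lay within the fusel range of -0.46 to 0.44. Both classes were chosen with earlier results of these data known, so neither permutation p comes from a class fixed in advance.

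Genes with a similar pattern were sought by the Pearson correlation of fitted values with those of GAP1 over the 20 sources. The ranking held the 1255 other genes tested on all 20 sources, each with a value on all 40 arrays. The rest of the 4332 genes in the fit were not ranked. The correlations are descriptions, since the 20 points share urea as their reference and the values of both genes come from the same arrays. Their median was 0.03 and their 95th percentile 0.63, and 22 genes exceeded 0.8. MEP2 was first, with r = 0.96, followed by GAT1 (0.91), the GATA activator gene, and NPR1 (0.91), which encodes a protein kinase that helps keep Gap1 at the cell surface. DAL5 (0.89) came next, then VSB1 (0.88), which encodes a vacuolar transporter of basic amino acids. The last 3 of the 8 were the vacuolar peptidase genes CPS1 (0.88), APE1 (0.88) and ATG42 (0.86). When GAP1 was read from replicate 1 arrays and the other gene from replicate 2 arrays, so that no array was shared, MEP2 was again first (r = 0.93), as it was the other way round (0.81). By Spearman correlation DAL5 was first and 3 of these 8 genes were among the highest 8.

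The 8 genes differed in how far they moved. MEP2 read -3.71 and -4.42 on asparagine and -4.11 and -3.60 on glutamine, fitted as -4.07 ± 0.25 and -3.85 ± 0.25 (adjusted p = 7.95e-12 and 2.77e-11). These lie close to the values of GAP1 on the same sources. It was called lower on 9 sources, including aspartate (-1.08, adjusted p = 0.00317) and glutamate (-0.82, adjusted p = 0.023), where GAP1 stood at -0.39 and -0.21 and was not called. That difference between the genes was not tested. DAL5 reached -5.97 on asparagine and was called lower on 16 sources, leucine (-2.29) and valine (-2.28) among them. GAT1 was lowest on glutamine, at -1.59, and was called lower on 10 sources, or on 5 without the dye term. NPR1 ranged from -1.05 on asparagine to 0.26 on tryptophan and was called lower on 7 sources. On ammonium GAP1 stood at -1.30, MEP2 at -2.10 and DAL5 at -4.93.

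The vacuolar genes moved less than GAP1 on its 3 lowest sources. CPS1, the carboxypeptidase S gene, was at -2.81 on asparagine and -2.04 on serine. VSB1 was lowest on glutamine, at -1.94, and was called lower on 16 sources. APE1, which encodes aminopeptidase I, was called lower on 15 sources, down to -1.49 on asparagine, and ATG42 on 7, down to -1.01 on asparagine. Of the ranked genes, the 4 least like GAP1 were NUP145 (r = -0.72), CLU1 (-0.71), SCP160 (-0.70) and NOT3 (-0.65). NUP145 is a nuclear pore gene, SCP160 encodes an RNA-binding protein and NOT3 is of the Ccr4-Not complex. The values of these 4 genes stayed between -0.33 and 0.51, and CLU1 was called higher on 9 sources.

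**Figure D3:**
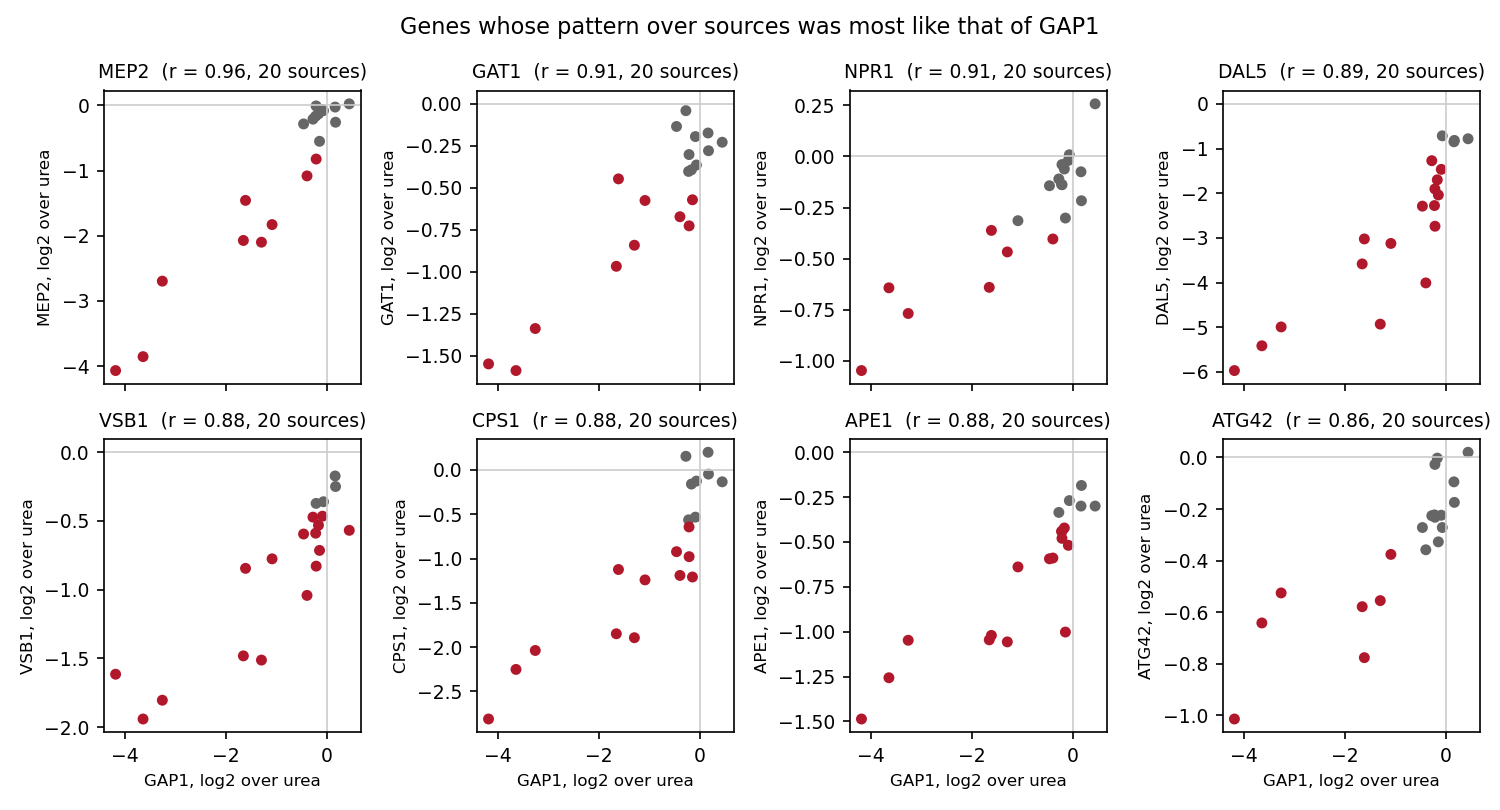
Fitted log2 ratio over urea of 8 genes (vertical axes, 1 panel a gene with its own scale) against that of GAP1 (horizontal axis). These 8 had the highest Pearson correlation with GAP1 among genes with values on all 40 arrays. Each point is 1 of 20 nitrogen sources, red where that gene was called lower. MEP2 follows GAP1 down to -4.07, whereas DAL5 is already at -4.93 on ammonium, where GAP1 is at -1.30.

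Of the amino acid permease family to which Gap1 belongs, 12 of 16 other genes had values on at least 30 arrays and entered the fit. BAP3, ALP1, AGP2 and AGP3 had fewer and were not tested. Over the 20 sources the 12 gave 212 tests of a gene on a source, of which 86 were higher, 35 lower and 91 not called, with a median of 0.37 against -0.003 over all genes. Over all genes 10.1% of such tests were higher and 9.42% lower. No sequence of the probes was used here, so whether related permease genes share signal on the array was not tested.

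The higher calls of the family were spread over several genes. AGP1, the gene of a permease of broad range, was called higher on 17 of 19 sources. On asparagine AGP1 read 1.70 and 1.41, fitted as 1.55 ± 0.46 (adjusted p = 0.016), where GAP1 was at -4.19. On citrulline AGP1 read 6.65 and 5.67, fitted as 6.16, and GAP1 was not called there. Its lowest value was 0.33, on proline. BAP2, whose product takes up branched-chain amino acids, was called higher on 16 of 17 sources, and GNP1, a glutamine permease gene, on 14 of 16. TAT1, HIP1 and TAT2 were called higher on 11 of 18, 10 of 17 and 9 of 13 sources.

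The lower calls of the family were those of CAN1, DIP5, PUT4, MMP1 and SAM3. SAM3 was called lower on 2 of 18 sources but higher on 6, of which 3 were sources where GAP1 was called lower. PUT4, the proline permease gene, read -3.91 and -4.01 on asparagine, fitted as -3.96 ± 0.27 (adjusted p = 8.95e-11), and -2.17 and -2.33 on ammonium, fitted as -2.25. It was called lower on 9 of 19 sources. PUT4 was not called on GABA (0.07, adjusted p = 0.889), where GAP1 was at -1.61. DIP5, which encodes the permease of acidic amino acids, was lowest on glutamine, where it read -3.75 and -3.07, and was called lower on 9 of 20 sources. On serine DIP5 was not called (-0.71, adjusted p = 0.208). CAN1, the arginine permease gene, was called lower on 11 of 20 sources and higher on tryptophan, and its r with GAP1 was 0.85. LYP1, the lysine permease gene, was called on 2 sources, both higher.

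Among the regulators of GAP1 transcription, all 5 genes were tested, with 3 higher, 44 lower and 43 not called of 90 tests (median -0.40). Over all genes 10.1% of such tests were higher and 9.42% lower. DAL80, the repressor gene, had the widest range. It read -5.37 and -5.53 on asparagine, fitted as -5.45 ± 0.27 (adjusted p = 6.16e-13), and was called lower on 15 of 19 sources, or on 9 without the dye term. Over those 19 sources its r with GAP1 was 0.95. DAL80 was not in the ranking by correlation above, since it was not tested on ornithine. GZF3, the other repressor gene, was called lower on 17 of 17 sources, with values from -0.83 to -0.34. GLN3, the activator gene, ranged from -0.31 to 0.32 with 2 sources lower and 2 higher of 14, calls that were lost without the dye term. URE2, whose product holds Gln3 back, was called on methionine only, where it was higher at 0.44. Of the SPS sensor, SSY1 and PTR3 had too few values. Of 55 tests of the others 10 were lower, beside 9.42% of tests over all genes, and 45 were not called. The 10 were all of STP2, a transcription factor gene, whose lowest value was -0.90 on asparagine, whereas STP1 lay between -0.25 and 0.20 and the protease gene SSY5 between 0.00 and 0.27.

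Of 17 genes for the secretion, sorting and turnover of Gap1, 16 were tested and DOA4, a deubiquitinase gene, had too few values. Of 281 tests 16 were higher, 41 lower and 224 not called (median -0.08), beside 10.1% higher and 9.42% lower over all genes. Without the dye term 6 were higher and 21 lower. NPR1 had the widest range of them and was described above. GTR1, which encodes a small GTPase of the complex that controls Gap1 sorting, was called lower on 9 of 18 sources, down to -0.61 on methionine. MEH1, of the same complex, was called lower on 7 of 20 sources, down to -0.57 on asparagine. RSP5, the ubiquitin ligase gene, and BUL1 and BUL2, the genes of its adaptors for Gap1, had 1 call each, all lower. SHR3, whose product is needed for Gap1 to leave the endoplasmic reticulum, was called lower on asparagine (-0.28). LST4, LST8 and SEC13, which encode sorting, TORC1 and vesicle coat proteins, were called higher on 7, 3 and 5 of 20 sources. The largest of their values was 0.51, for SEC13 on GABA.

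The list of 9 other nitrogen transporter genes gave 157 tests, of which 38 were higher, 76 lower and 43 not called (median -0.55). The shares over all genes were 10.1% higher and 9.42% lower. DUR3, the urea transporter gene, was lower on 20 of 20 sources and did not follow GAP1 (r = -0.35). DAL4, the allantoin permease gene, was lower on 19, down to -4.81 on asparagine, with r = 0.55. On tryptophan, where GAP1 was at 0.44, DUR3 was at -3.92 and DAL4 at -2.78. Of the ammonium permease genes MEP1 was lower on 11 of 19 sources, with r = 0.71, while MEP3 was higher on 9 of 16 and lower on 1. UGA4, the GABA permease gene, read 3.80 and 5.04 on GABA, fitted as 4.42 ± 0.18 (adjusted p = 5.23e-14), where GAP1 was at -1.61. PTR2 and OPT2, peptide transporter genes, were called higher on 9 and 11 of 13 sources.

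**Figure D4:**
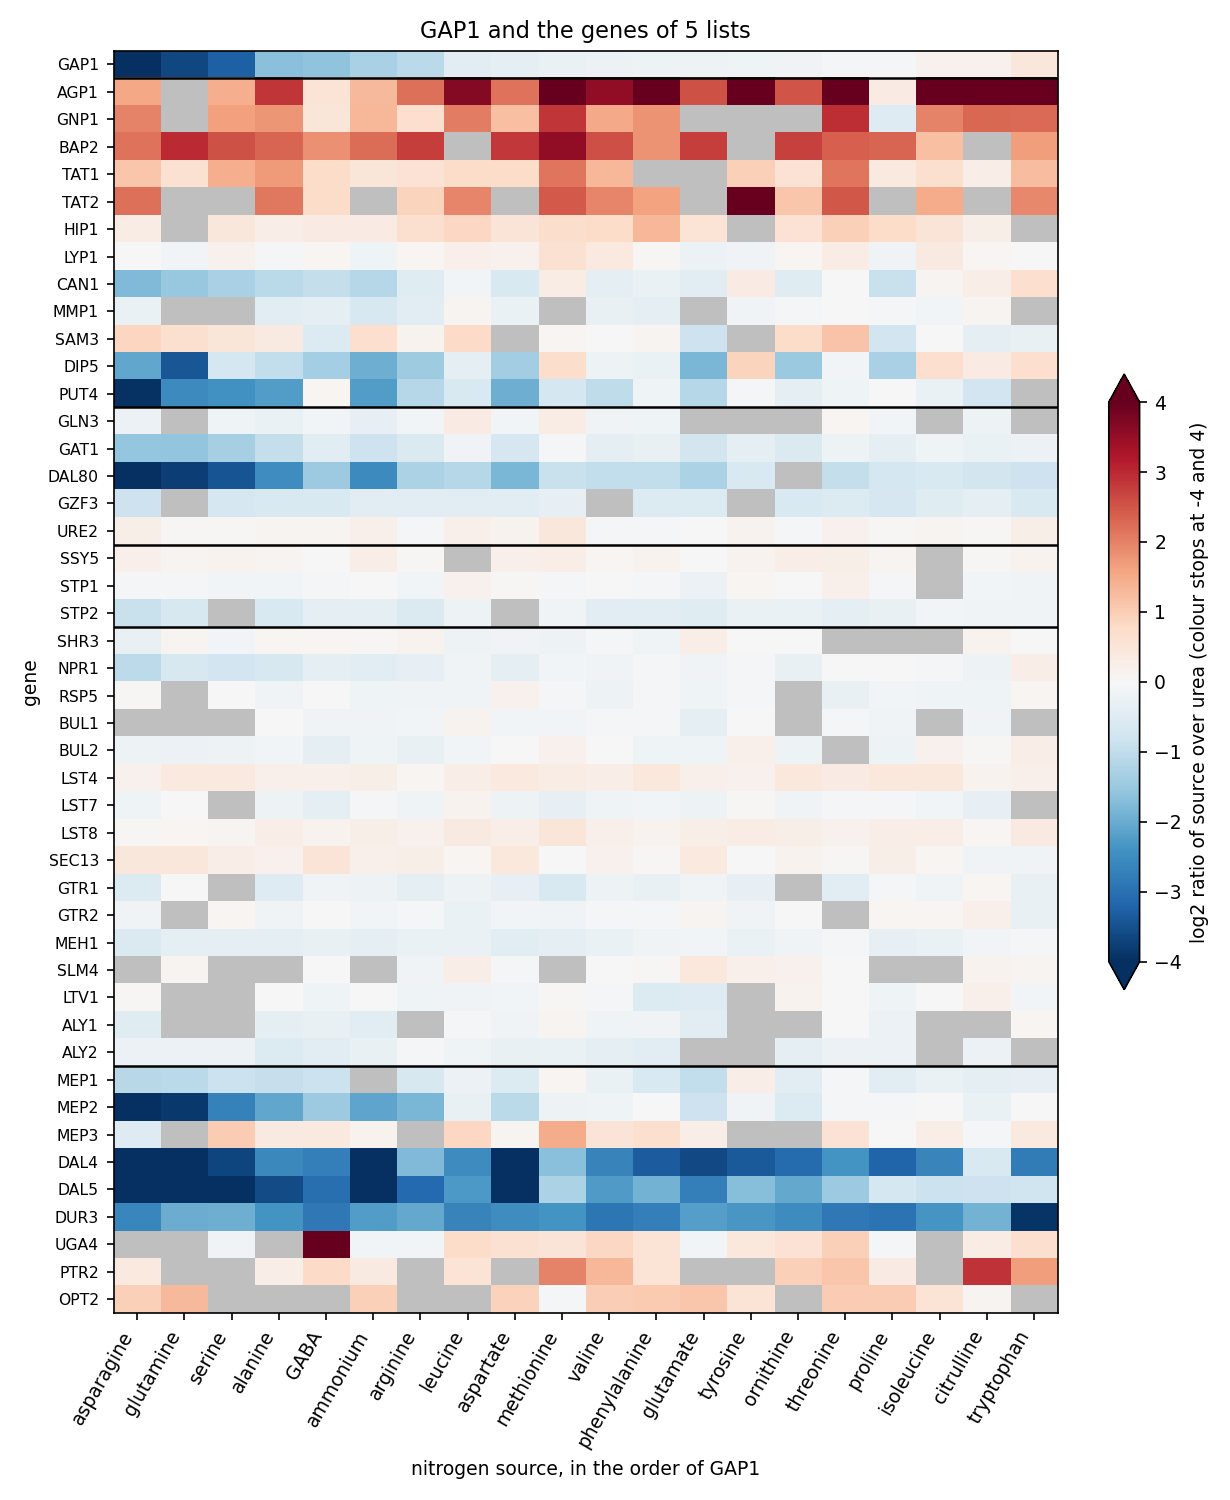
Fitted log2 ratio over urea (colour, which stops at -4 and 4, grey where a source was not tested) of GAP1 and of the genes of 5 lists (rows, lists separated by lines, from the top the permease family, GATA factors and URE2, SPS sensor, secretion and turnover, other nitrogen transporters) on the 20 sources (columns, in the order of GAP1). AGP1 and BAP2 are above urea on nearly every source, DUR3 and DAL4 below it, and MEP2 and DAL80 fall mainly at the left, where GAP1 does.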

How the data were processed

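PolyA RNA of a nitrogen source and of urea was hybridised together on 40 two-colour arrays, per the labels. The authors deposited centred log ratios of Cy5 over Cy3, 1 per spot, in 2 tables, read here as log2. That base is an assumption, with scanner, background correction, normalization and filter each not given in the sources used here. Sources are in Cy5 on 18 arrays and urea is on 22, so for 18 sources a replicate number stands for 1 table and 1 dye orientation.

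Ratios were turned to source over urea and spots of a gene averaged. Probes were named by the platform annotation, with symbols of the RefSeq R64 gene table. The model (limma 3.58.1 in R 4.3.3) held 20 source terms, signed by dye, and 1 dye term, on 4332 genes with values on at least 30 arrays, with the spread moderated over genes. A source was tested for genes with both arrays. The fit was tested on simulated data. Figures used Python 3.11.15 with matplotlib 3.10.9.

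Deviations of the same replicate number correlated over 0.1 in all 153 pairs of the sources that had both dye orientations (median 0.438). For these sources the replicate number is also the dye orientation and the table. The correlations cannot show whether replicate numbers pair arrays, since a dye effect shared by the sources would also give them. A block on the replicate number cannot tell replicate, dye and table apart.

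GAP1, the lists, pairs and classes were chosen with earlier results of these data known. Named genes are GAP1, the 8 highest and 4 lowest correlations with it, and up to 4 members of each of 5 lists by range over sources, others by count. CAN1, DUR3, LYP1, GZF3, MEP1, MEH1, SHR3 and SEC13 were given values or correlations after these were seen.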

Additional observations from a re-analysis of the deposited data

Results flagged for a closer look

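The 5 results that follow are listed because 2 groups of samples differed by a test of the difference itself. The pairs and classes were chosen with earlier results of these data known. GAP1 differed by -3.43 between glutamine and glutamate, by -3.80 between asparagine and aspartate, and by 3.18 between threonine and serine (contrasts in limma). It differed by -2.51 between ammonium, glutamine and asparagine and the other sources. Between the fusel alcohol amino acids and the other sources it differed by 1.24, a difference that did not pass without tryptophan and tyrosine. In groups of 2 arrays a single outlying array cannot be identified.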

How the results depend on the processing

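Over the alternatives other than leaving out single arrays or 1 replicate number, 550 values were recomputed. Of these, 515 kept their sign and call or, for counts, stayed within a fixed ratio of the count in the main fit. Another 7 lost their call, 3 changed sign and 25 counts moved beyond that ratio. GAP1 on asparagine, glutamine and serine, its 3 called pairs, the preferred-source class and the F-test kept their calls in all alternatives run. The call on arginine (-1.09) was lost without the dye term (adjusted p = 0.105), with the replicate block (0.0582), with genes on at least 20 arrays (0.0529), with array weights (0.247) and with its own arrays only (0.448), and the call on alanine (-1.66) with its own arrays only (0.114). The array weights were equal for both arrays of each source, so they could not set 1 array of a pair apart. The replicate block changed no other call of GAP1. Tyrosine, uncalled throughout, became 0.022 with the block, without the dye term and with its own arrays only. The fusel class difference was 1.14 (exact permutation test, p = 0.108) without tryptophan and tyrosine.

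With 1 array left out, values ranged from -1.45 to -1.14 on ammonium, -1.90 to -1.32 on GABA, -2.71 to -0.61 on alanine and -1.91 to -0.27 on arginine, with calls lost as stated above. The number of sources called lower ranged from 5 to 7. With all arrays of 1 replicate number left out, the fusel difference ranged from 0.93 to 1.66. With 1 array left out, uncalled values changed sign: they ranged from -0.92 to 0.14 on aspartate, -0.77 to 0.22 on methionine, -0.51 to 0.061 on valine, -0.42 to 0.13 on ornithine, -0.43 to 0.26 on threonine, -0.53 to 0.40 on proline, -0.076 to 0.40 on isoleucine and -0.058 to 0.40 on citrulline. The same held for proline minus glutamate (-0.32 to 0.61), leucine minus valine (-0.52 to 0.045) and phenylalanine minus tyrosine (-0.15 to 0.070). The cause was not tested, except that fewer arrays carry each value.

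Of the list counts, removing the dye term gave 1 higher call among the GATA genes, against 3, and 6 higher and 21 lower among the secretion and turnover genes, against 16 and 41. Genes on all 40 arrays, a set with fewer genes, gave 3 higher and 20 lower calls in the permease family, 1 higher and 11 lower among the GATA genes, 0 lower in the SPS sensor, 15 lower among the secretion genes and 0 higher among the other transporters. Array weights gave 5 higher calls among the GATA genes and 2 in the SPS sensor. Of the 8 genes most like GAP1, 3 were among the highest 8 by Spearman correlation and 3 with GAP1 from replicate 2 and the other gene from replicate 1. A log base other than 2 would rescale all folds, and 2 arrays a source limit what can be detected.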
